A study of Mus musculus with 14 samples.

Results

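The natriuretic peptide system of the left ventricle was examined in mice of the WT and HCN4F genotypes, with Sham or TAC operation. Its members were taken by name as the peptide genes Nppa, Nppb and Nppc, the receptor genes Npr1, Npr2 and Npr3, and the genes of the processing proteases Corin and Furin. All 8 were among the 49315 genes of the count table, and 7 of them were among the 15292 genes with enough reads for a test. Nppc was not tested.

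Natriuretic peptides are hormones that heart muscle releases when it is stretched or under pressure, and they lower blood pressure through salt and water loss and relaxation of vessels. Each is made as a precursor that a protease cuts: corin, a serine protease on the surface of cardiomyocytes, activates pro-ANP, and furin, a convertase of the secretory pathway, can cut pro-BNP. The receptors encoded by Npr1 and Npr2 make cGMP, while the one encoded by Npr3 mainly removes the peptides. Nppa is a gene of the embryonic ventricle that stays active in the adult atrium, and its return in the ventricle together with that of Nppb is a textbook marker of hypertrophy.

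RNA was taken from the left ventricle of male mice 5 weeks after the operation, which was done at an age of 10 to 12 weeks. TAC is a constriction of the transverse aorta that raises the pressure load on the left ventricle, and Sham animals had the operation without it. HCN4F mice are a germline knock-in line in which a tyrosine of the pacemaker channel gene Hcn4 is replaced by phenylalanine, a gain-of-function change; WT mice carry the normal gene, and the copy number of the changed allele is not given in the sources used here. Analysed were 14 libraries: 4 WT-Sham, 4 HCN4F-Sham, 4 HCN4F-TAC and 2 WT-TAC, which are replicates 2 and 3 of that group. The count table has 2 more columns whose names are formed like those of WT-TAC but match no sample used here. They were not analysed here, so the values of WT-TAC rest on 2 libraries and may not cover the whole group.

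The libraries held 22309914 to 35210939 counts, of which mitochondrial genes took 13.9% to 23.1%. Levels are given as CPM, counts scaled by TMM to a common library size, and a count of 0 allows up to 3 counts, or 0.0859 to 0.137 CPM, a limit that covers counting error only. The ventricular myocyte genes Myl2, Myl3, Irx4, Hey2 and Mb summed to at least 17113 CPM in every library. In such tissue samples fewer cells of a type and less RNA per cell cannot be told apart. HCN4F-TAC replicate 2 stood apart in 4 of 7 atrial myocyte genes, with the values given beside Nppa.

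Nppa and Nppb are neighbours in the same direction on mouse chromosome 4 (build GRCm38), at chr4:148000722-148002079 and chr4:147985788-147987205 on the plus strand, with 13516 bases between them. Because these were the members that moved, their proximal promoters are shown, from 250 bases before to 50 bases from the RefSeq start on (GRCm38.p6, plus strand, 5′ to 3′). The RefSeq start of Nppb lies downstream of its GENCODE start. The Nppb window is chr4:147985650-147985949 and the Nppa window chr4:148000472-148000771. Capitals mark 4 kinds of match. GATAA holds the core that GATA factors bind. TATAAAA holds the letters of a TATA box, an element that can position the start of transcription. The letters CATTCC make up the MCAT element, which TEAD factors bind. AAGTG is the core of NK homeobox sites. Both strands were searched, and a capital run that differs from these letters is a match on the minus strand.
Nppb: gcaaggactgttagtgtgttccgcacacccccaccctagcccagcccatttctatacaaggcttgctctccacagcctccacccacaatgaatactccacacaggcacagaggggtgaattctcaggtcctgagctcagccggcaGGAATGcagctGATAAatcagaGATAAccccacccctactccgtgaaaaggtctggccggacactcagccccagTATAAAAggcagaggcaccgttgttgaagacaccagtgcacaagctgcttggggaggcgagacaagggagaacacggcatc
Nppa: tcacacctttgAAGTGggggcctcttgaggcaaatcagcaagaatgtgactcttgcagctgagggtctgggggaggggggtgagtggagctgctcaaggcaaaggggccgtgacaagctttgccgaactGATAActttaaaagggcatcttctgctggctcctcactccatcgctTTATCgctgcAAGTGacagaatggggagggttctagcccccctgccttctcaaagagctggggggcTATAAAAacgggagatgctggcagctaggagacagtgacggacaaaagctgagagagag

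Both windows held 2 GATAA and 1 TATAAAA. In Nppb GATAA lay 94 to 90 and 83 to 79 bases before the start, with the MCAT letters 105 to 100 and TATAAAA 31 to 25 bases before it. Nppa had GATAA 121 to 117 bases before its start on the plus strand and 75 to 71 bases before it on the minus strand. AAGTG lay at 239 to 235 and at 65 to 61 bases and TATAAAA at 9 to 3 bases. That TATAAAA lies nearer to the RefSeq start than the one of Nppb, and whether it positions this start was not tested. Of 32851 promoter windows of the same length, 25.4% held GATAA, 5.48% TATAAAA, 14.7% CATTCC and 46.4% AAGTG. At least 2 GATAA together with a TATAAAA were found in 206 windows, or 0.627%. This combination is the one that the Nppb and Nppa windows hold, so its share describes them and does not test them. The 7 windows of the other 6 members held neither GATAA nor TATAAAA, and 1 of the windows of Furin held 5 AAGTG. A CArG box and a MEF2 site were also searched, and the Nppa and Nppb windows held no match to either. These are matches of letters and not sites shown to be bound.

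The first question was which genes of the system changed under pressure overload in each genotype. In HCN4F, both detected peptide genes rose after TAC, and the receptors and proteases did not pass the test. A call needed both an adjusted p under 0.05, from the quasi-likelihood test of edgeR, and a log2 fold change outside -1 to 1. In HCN4F 2 of 7 tested members were called, beside 2.75% of all tested genes, and 3 (with Npr3) had an unadjusted p under 0.05, beside 28.3%. In WT edgeR called 0 of 7 members, beside 0.706% of all tested genes, and DESeq2 fitted on all groups called 0 as well. Only Furin had an unadjusted p under 0.05 there, 1 of 7 members, beside 22% of all tested genes.

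Nppa encodes the precursor of atrial natriuretic peptide. In WT-Sham its level was 109, 80.9, 86.9 and 182 CPM in replicates 1 to 4, and in HCN4F-Sham 134, 130.5, 69.0 and 96.0 CPM. In WT-TAC it was 244 and 195 CPM. In HCN4F-TAC it was 554, 1832, 410.2 and 1179 CPM. Every TAC library thus lay above every Sham library, and every HCN4F-TAC library above both WT-TAC libraries. After TAC in HCN4F Nppa was 9.27-fold higher (95% interval 4.44 to 19.4), a log2 fold change of 3.21 (SE 0.48, adjusted p = 0.00164). In WT the log2 fold change was 0.93 (SE 0.53, 95% interval -0.23 to 2.10, adjusted p = 0.333).

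Nppb encodes the precursor of B-type natriuretic peptide, named for the brain but made mainly in the ventricle. Its level was 190.4, 282, 372 and 299 CPM in WT-Sham and 357, 210.1, 97.6 and 141 CPM in HCN4F-Sham. In WT-TAC it was 458 and 531 CPM, and in HCN4F-TAC 1035, 1214, 680.4 and 929.5 CPM. As for Nppa, the TAC libraries of each genotype lay above all its Sham libraries, and HCN4F-TAC above WT-TAC. Nppb was 4.79-fold higher after TAC in HCN4F (95% interval 2.73 to 8.40), a log2 fold change of 2.26 (SE 0.37, adjusted p = 0.00251). In WT the log2 fold change was 0.79 (SE 0.42, 95% interval -0.13 to 1.72, adjusted p = 0.301). Groups that do not overlap were frequent where WT-TAC was compared: 39.2% of all tested genes had none between WT-TAC and WT-Sham, and 15.1% between HCN4F-TAC and HCN4F-Sham.

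Nppc, the gene of C-type natriuretic peptide at chr1:86666291-86670571 on the minus strand, is known mainly from endothelium, brain and growing cartilage. It had 0 to 2 counts in each of the 14 libraries, which is at or under the limit of 3 counts. No difference in Nppc was detectable at this depth, and no fold change is given.

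**Figure D1:**
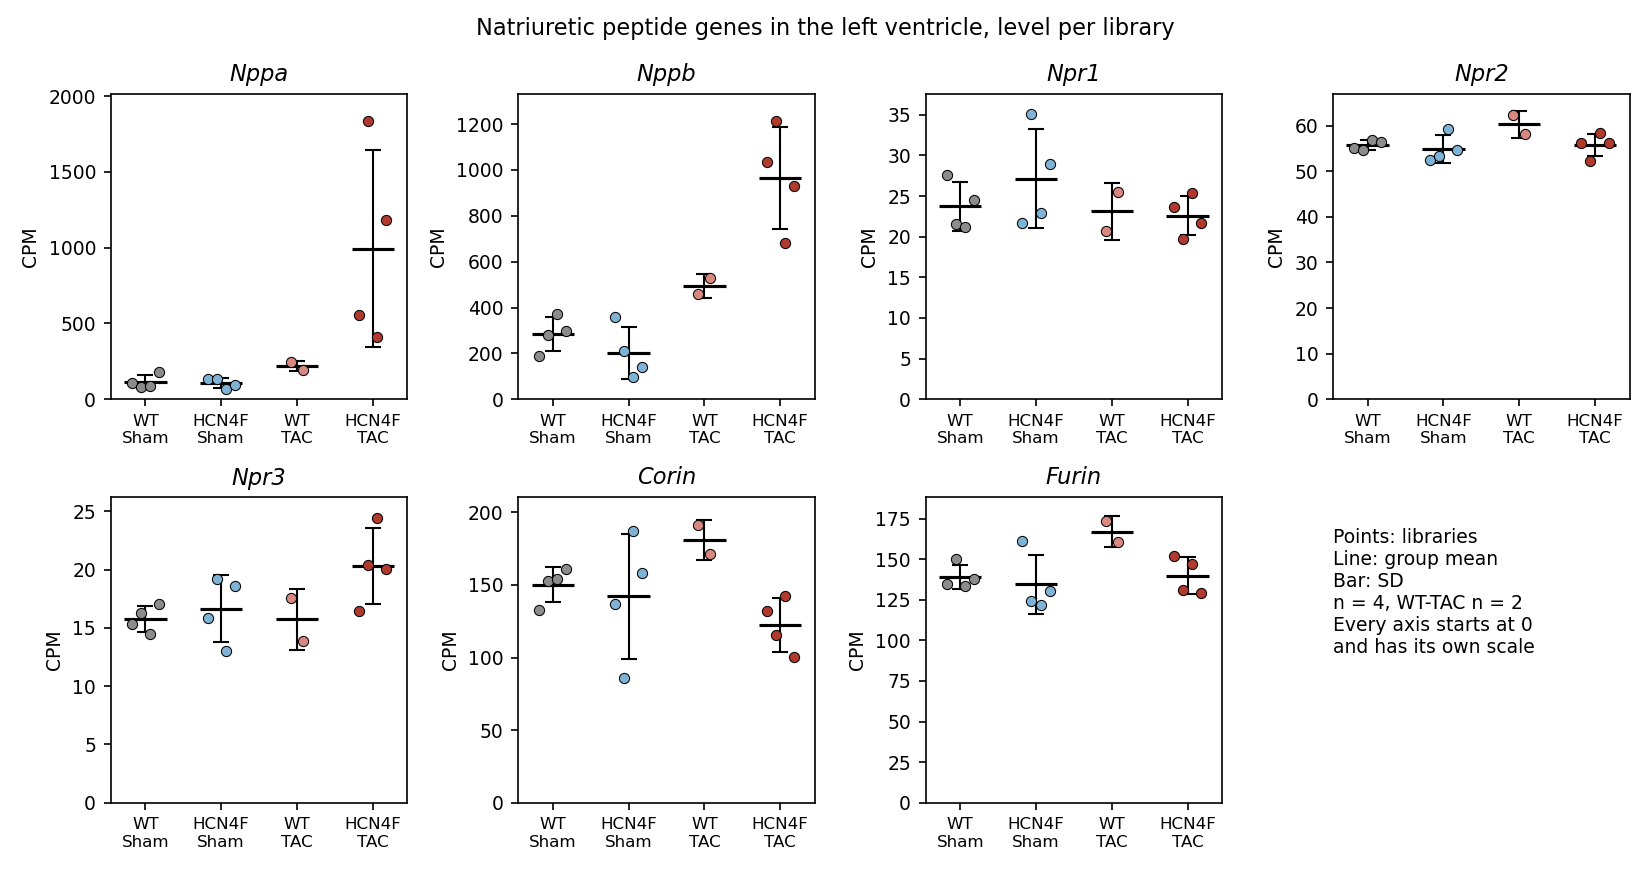
Level of the 7 tested genes in CPM (y axes, linear, from 0, each with its own scale) in each library of the 4 groups (x axes). Points are libraries, lines group means and bars SD (n = 4, WT-TAC n = 2). Nppa spans 410.2 to 1832 CPM and Nppb 680.4 to 1214 CPM in HCN4F-TAC, above all other libraries, while Npr2 stays between 52.4 and 62.4 CPM in all 14.

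The next question was whether the genotypes differed. After Sham surgery they overlapped in all 7 members, with log2 fold changes of HCN4F against WT from -0.51 (Nppb, SE 0.35, adjusted p = 0.531) to 0.19 (Npr1, SE 0.14, adjusted p = 0.541). Both edgeR and DESeq2 called 0 of 7 members there, and 0 of 7 had an unadjusted p under 0.05; of all tested genes 0.209% were called, 8.56% had groups without overlap and 15.2% had an unadjusted p under 0.05. After TAC Nppa was 2.18 higher in HCN4F on the log2 scale (SE 0.61, 95% interval 0.85 to 3.51), yet its adjusted p was 0.181. Nppb was 0.96 higher (SE 0.45, adjusted p = 0.410). By edgeR 0 of 7 members were called between the TAC groups, beside 0.0719% of all tested genes. An unadjusted p under 0.05 was found for 4 of 7, Nppa, Npr3, Corin and Furin, beside 12.5% of all tested genes. DESeq2 on all groups called Nppa (adjusted p = 0.0164), and so did edgeR without HCN4F-TAC replicate 3 (log2 fold change 2.44, adjusted p = 0.0450). Fitted on the TAC groups alone, neither DESeq2 nor edgeR called it.

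The difference of the TAC responses, tested as the genotype by surgery interaction, was 2.28 for Nppa on the log2 scale (SE 0.74, 95% interval 0.66 to 3.90, adjusted p = 0.460). For Nppb it was 1.47 (SE 0.57, 95% interval 0.21 to 2.73, adjusted p = 0.488). No gene (0%) passed this test by edgeR, where 1418 genes (9.27%) and 2 of 7 members had an unadjusted p under 0.05 and the smallest adjusted p was 0.168. DESeq2 on all groups passed 40 genes, none of them a member. The responses of the peptide genes are therefore not shown to differ between genotypes.

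**Figure D2:**
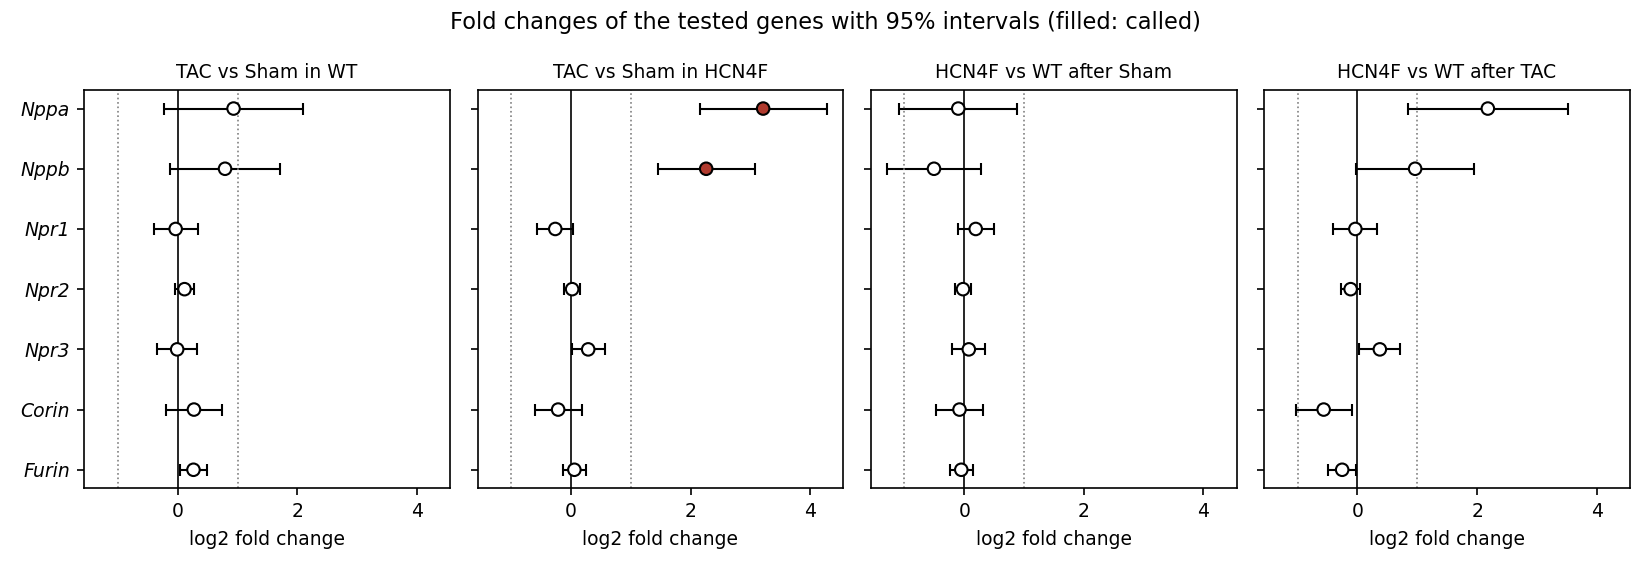
Log2 fold changes (x axes) of the 7 tested genes (y axis) in 4 comparisons, with 95% intervals as bars. Filled points passed the call and dotted lines mark log2 fold changes of -1 and 1. Only Nppa (3.21) and Nppb (2.26) after TAC in HCN4F are filled, and their intervals are the widest in each panel.

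The peptide genes were also the members that varied most within a group. The SD of log2 CPM within groups was 0.67 for Nppa, larger than in 99.3% of 12564 genes with a mean of at least 1 CPM, and 0.53 for Nppb, larger than in 98.4%. Npr2 stood at the other end with 0.06, larger than in 2.11% of genes. The other members lay between, from Furin at 0.13 to Corin at 0.30, beside a median of 0.16 over all genes.

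Nppa and Nppb did not move in a fixed proportion. The ratio of Nppa to Nppb counts was below 1 in 12 of 14 libraries. It was 1.51 in HCN4F-TAC replicate 2 and 1.27 in replicate 4, while replicates 1 and 3 had 0.535 and 0.603. As log2 ratios the groups had means of -1.35 ± 0.70 (SD, n = 4) in WT-Sham, -0.79 ± 0.43 (n = 4) in HCN4F-Sham, -1.18 ± 0.38 (n = 2) in WT-TAC and -0.17 ± 0.75 (n = 4) in HCN4F-TAC. HCN4F-TAC overlapped both Sham groups, while its lowest library (-0.903) lay barely above the highest of WT-TAC (-0.907). The means were not tested against each other. HCN4F-TAC replicates 2 and 4 were also the libraries highest in the atrial genes Myl4, Sln and Mybphl, while other atrial genes differed. Stard10 was lowest of all libraries in replicate 2 (10.5 CPM) and Nr2f1 in replicate 4 (3.21 CPM). Bmp10 was highest in replicate 4 and at 0 in replicate 2. Myl7 was highest in replicate 2, while replicate 4 (0.163 CPM) lay below HCN4F-Sham replicate 4 (0.694 CPM). Without replicate 2 the difference of the mean log2 ratio between HCN4F-TAC and HCN4F-Sham was 0.36 in place of 0.62. Per kilobase of exon Nppb was the most abundant member in every group mean, followed by Nppa: 366 and 133 CPM per kb in WT-Sham, 1235 and 1149 in HCN4F-TAC. The latter means differ by less than the SD of either (285 and 753, n = 4). Across the 14 libraries log2 Nppa and log2 Nppb had a Pearson r of 0.88, and of 0.48 once group means were removed; these libraries share their group effects and their depth, and the values are a description.

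**Figure D3:**
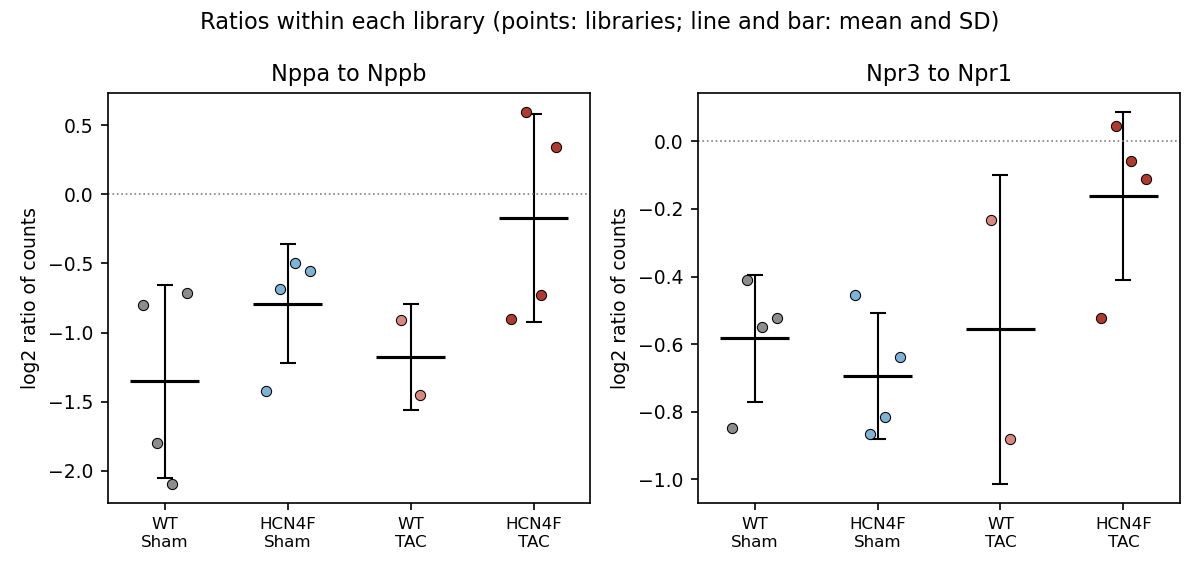
Log2 ratio of counts (y axes) of Nppa to Nppb (left) and of Npr3 to Npr1 (right) in each library of the 4 groups. Points are libraries, lines and bars the mean and SD, and the dotted line marks equal counts. HCN4F-TAC splits for Nppa to Nppb into 2 libraries above the line and 2 below it.

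Atrial myocytes carry much Nppa, so genes of these cells were read in every library. In HCN4F-TAC replicate 2 Sln, the sarcolipin gene, had 3.79 CPM and 0 to 0.285 CPM in the other 13 libraries. Myl7, an atrial myosin light chain, had 9.91 CPM there and 0 to 0.694 CPM elsewhere. Myl4, the other atrial light chain, had 17.4 CPM there and 1.18 to 4.07 CPM elsewhere. Mybphl followed with 1.78 CPM against 0 to 0.285 CPM. HCN4F-TAC replicate 2 was also the library with the most Nppa, 1832 CPM. HCN4F-TAC replicate 4, with the next highest Nppa (1179 CPM), was next in Myl4 (4.07 CPM), Sln (0.285 CPM) and Mybphl (0.285 CPM) as well, but not in Myl7. The rank of HCN4F-TAC replicate 4 in Sln rested on 7 counts, beside 9 counts (0.272 CPM) in HCN4F-Sham replicate 4. Bmp10, which is specific for the atrium, was at 0 in HCN4F-TAC replicate 2 and highest in HCN4F-TAC replicate 4, with 0.529 CPM. Nr2f1 had 3.85 CPM in HCN4F-TAC replicate 2 and 3.21 CPM, the lowest of all libraries, in HCN4F-TAC replicate 4. The 7 atrial genes together summed to 47.2 CPM in HCN4F-TAC replicate 2 and to 17.5, 23.7 and 20.5 CPM in replicates 1, 3 and 4, beside 27.2 to 30.7 CPM in WT-Sham, 30.5 to 39.7 CPM in HCN4F-Sham and 21.01 to 26.5 CPM in WT-TAC. In the other 13 libraries most of the sum came from Stard10, while in HCN4F-TAC replicate 2 it gave 10.5 CPM. Stard10 fell after TAC in HCN4F by 1.12 on the log2 scale (SE 0.16, adjusted p = 0.000491).

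Without HCN4F-TAC replicate 2 Nppa was still called after TAC in HCN4F, with a log2 fold change of 2.73 (adjusted p = 0.00304), and Nppb with 2.13 (adjusted p = 0.00785). In HCN4F-TAC replicates 1 and 3 Sln and Myl7 were at 0 counts, and Nppa was 554 and 410.2 CPM, above all 8 Sham libraries. The part of atrial transcripts in the Nppa levels of the HCN4F-TAC libraries was not tested. Between the TAC groups the log2 fold change of Nppa was 1.69 without replicate 2 (adjusted p = 0.349). The mitochondrial share of the counts was also lowest in HCN4F-TAC replicate 2, at 13.9%. It was 16.8% to 18.6% in the other HCN4F-TAC libraries, 18.4% and 20.03% in WT-TAC and 17.1% to 23.1% in the Sham libraries, and its part in the levels of Nppa and Nppb was not tested.

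**Figure D4:**
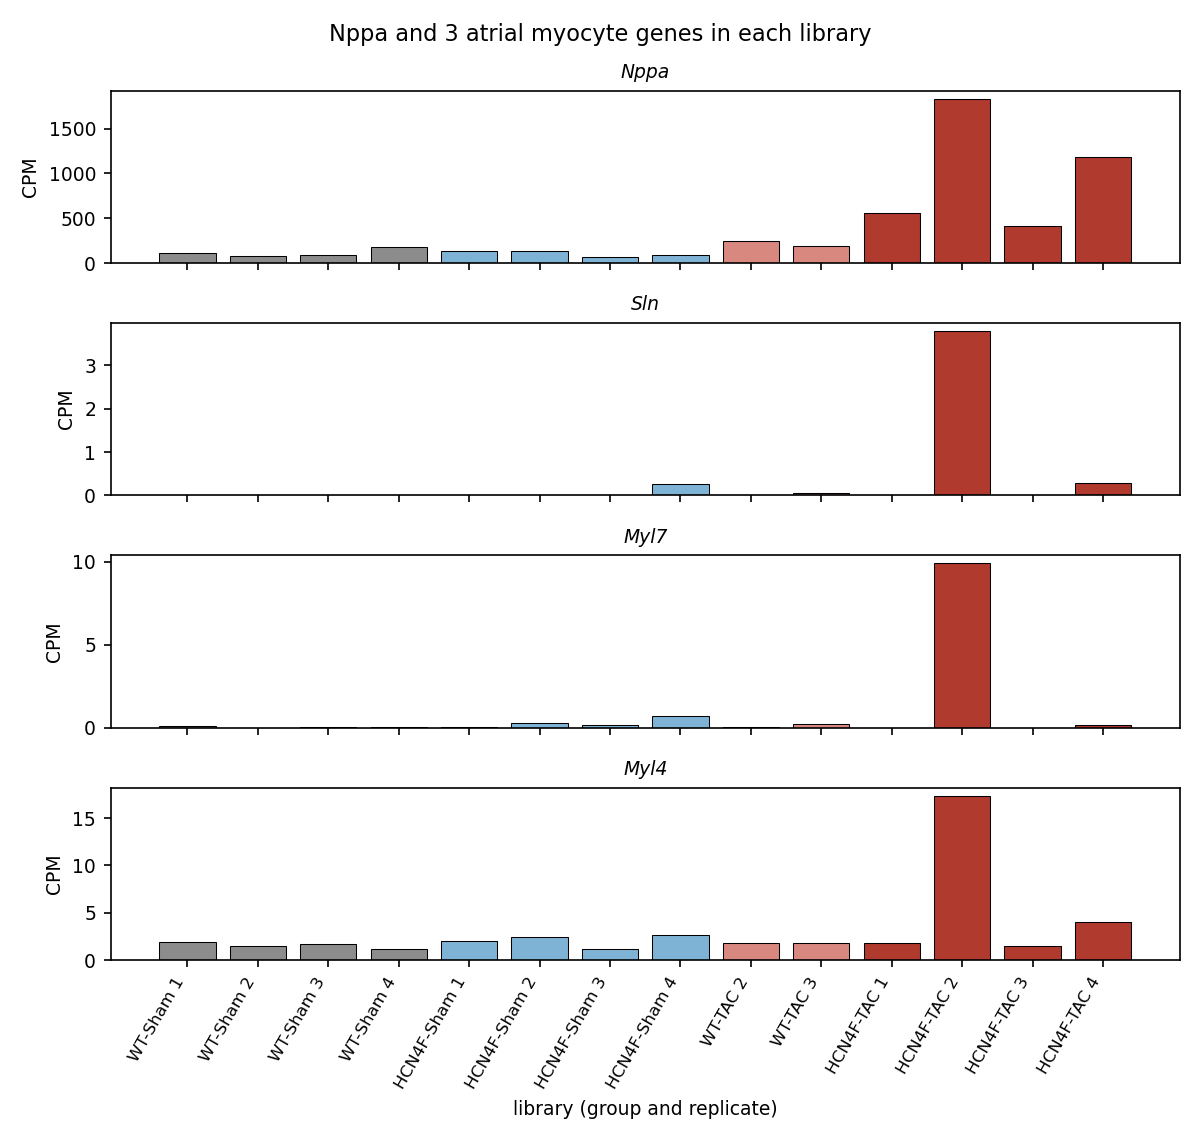
Level of Nppa and of the atrial genes Sln, Myl7 and Myl4 in CPM (y axes, linear, from 0) in each of the 14 libraries (x axis, coloured by group). HCN4F-TAC replicate 2 is highest in all 4 panels, and HCN4F-TAC replicates 1 and 3 have 554 and 410.2 CPM of Nppa with Sln and Myl7 at 0.

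The receptors did not pass the test in any comparison. Npr1, at chr3:90450591-90465866 on the minus strand, encodes the cGMP-forming receptor of ANP and BNP. Its levels were 21.1 to 27.6 CPM in WT-Sham, 21.7 to 35.1 CPM in HCN4F-Sham, 20.7 and 25.6 CPM in WT-TAC and 19.8 to 25.4 CPM in HCN4F-TAC. All groups overlapped, and the log2 fold change after TAC was -0.26 in HCN4F (SE 0.14, adjusted p = 0.239) and -0.03 in WT (SE 0.17, adjusted p = 0.933).

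Npr2, at chr4:43631935-43651244 on the plus strand, encodes the receptor for C-type peptide and was the most even member. It had 54.7 to 56.9 CPM in WT-Sham, 52.6 to 59.4 CPM in HCN4F-Sham, 62.4 and 58.2 CPM in WT-TAC and 52.4 to 58.3 CPM in HCN4F-TAC. After TAC its log2 fold change in HCN4F was 0.02, with a 95% interval of -0.11 to 0.15, whose upper end is a 1.11-fold change. In WT it was 0.11 (95% interval -0.05 to 0.27, adjusted p = 0.399).

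Npr3, at chr15:11839896-11907287 on the minus strand, encodes the clearance receptor, which lacks the cyclase domain. It had 15.3, 16.3, 14.5 and 17.1 CPM in WT-Sham, 15.8, 19.2, 13.0 and 18.6 CPM in HCN4F-Sham and 17.6 and 13.9 CPM in WT-TAC. In HCN4F-TAC it had 16.4, 20.4, 24.4 and 20.01 CPM, so that 3 of these libraries lay above all others. The log2 fold change after TAC in HCN4F was 0.29 (SE 0.13, 95% interval 0.01 to 0.56, adjusted p = 0.157). HCN4F-TAC was 0.37 above WT-TAC (SE 0.16, adjusted p = 0.354).

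Npr3 and Npr1 lie at opposite ends of peptide handling, removal and signalling. The log2 ratio of Npr3 to Npr1 counts was -0.58 ± 0.19 (SD, n = 4) in WT-Sham, -0.69 ± 0.19 (n = 4) in HCN4F-Sham and -0.56 ± 0.46 (n = 2) in WT-TAC. In HCN4F-TAC it was -0.16 ± 0.25 (n = 4), with ratios of 0.696, 1.03, 0.960 and 0.925 in replicates 1 to 4. Replicate 1 lay within the range of the Sham libraries and the other 3 above it, as did WT-TAC replicate 2 with a ratio of 0.851, while WT-TAC replicate 3 had 0.543. The difference between HCN4F-TAC and HCN4F-Sham, 0.53 on the log2 scale, was not tested. Per kilobase of exon the order of the receptors was Npr2 before Npr1 before Npr3 in every group, with 11.95, 4.96 and 1.68 CPM per kb in WT-Sham.

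The protease genes had their highest group means in WT-TAC. Corin, at chr5:72300025-72504473 on the minus strand, had 133, 153, 154 and 161 CPM in WT-Sham and 137, 85.6, 187 and 159 CPM in HCN4F-Sham. In WT-TAC it had 191 and 171 CPM and in HCN4F-TAC 132, 115, 142 and 100.4 CPM. The WT-TAC libraries thus lay above those of WT-Sham and of HCN4F-TAC, while HCN4F-Sham spanned nearly the whole range. The log2 fold change after TAC was 0.27 in WT (SE 0.22, adjusted p = 0.502) and -0.21 in HCN4F (SE 0.18, adjusted p = 0.473). HCN4F-TAC was 0.56 below WT-TAC (log2 fold change -0.56, SE 0.22, 95% interval -1.03 to -0.10, adjusted p = 0.313). The interaction was -0.49 (SE 0.29, adjusted p = 0.628).

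Furin, at chr7:80388585-80405436 on the minus strand, is expressed in nearly all cells. It had 135, 149.9, 134 and 138 CPM in WT-Sham, 161, 124, 122 and 130.4 CPM in HCN4F-Sham, 174 and 160.3 CPM in WT-TAC and 152, 131, 147 and 129 CPM in HCN4F-TAC. Here too WT-TAC lay above WT-Sham and HCN4F-TAC. The log2 fold change after TAC was 0.26 in WT (SE 0.11, adjusted p = 0.167) and 0.06 in HCN4F (SE 0.09, adjusted p = 0.722). Between the TAC groups it was -0.26 (SE 0.11, adjusted p = 0.347). With WT-TAC at 2 libraries, 22.2% of all tested genes had no overlap between the TAC groups, as Nppa, Nppb, Corin and Furin had. Fits on the compared groups alone gave lower adjusted p-values for some members, with fold changes below the limit of a call. After TAC in WT those of DESeq2 were 0.0397 for Nppb, 0.0276 for Corin and 0.0141 for Furin, and those of edgeR were 0.0418 for Corin and 0.0245 for Furin. Between the TAC groups DESeq2 gave 0.000271 for Nppb and 0.0166 for Corin. Both tools called 0 members in these fits of the TAC groups alone, so Nppa, called by DESeq2 on all groups, was not called.

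The wider pathway was read in 36 genes, of which 34 could be tested. They comprised other convertases, peptide-degrading enzymes, soluble guanylyl cyclase, phosphodiesterases, cGMP kinases with their targets, and transcription factors that act at the peptide genes. None was called in any comparison by edgeR or by DESeq2 on all groups. Of all tested genes edgeR called 2.75% after TAC in HCN4F, 0.706% in WT, 0.0719% between the TAC groups, 0.209% between the Sham groups and 0% in the interaction. In the same order DESeq2 called 432, 125, 87, 62 and 40 of 15292. At such shares 0 of 34 does not set the pathway apart. An unadjusted p under 0.05 was found for 15 of 34 after TAC in HCN4F (28.3% of all tested genes) and 10 in WT (22%). It was found for 5 between the TAC groups (12.5%), 8 between the Sham groups (15.2%) and 2 in the interaction (9.27%). Their median log2 fold change after TAC was -0.01 in HCN4F and 0.08 in WT, beside -0.01 and -0.02 over all tested genes. An adjusted p under 0.05 without the fold limit was reached by 8 of 34 genes after TAC in HCN4F (13.6% of all tested genes) and by 3 of 34 in WT (4.54%). In the comparisons between genotypes and in the interaction 0 of 34 reached it. Of all 15292 tested genes 17 reached it between the TAC groups, 72 between the Sham groups and 0 in the interaction. Several of the pathway genes that reached it after TAC lost the threshold under an alternative. In HCN4F they were Mme, Pde1c, Prkg1, Gata4 and Srf, with highest adjusted p-values of 0.0721 (without HCN4F-TAC replicate 1) for Mme and, each without HCN4F-TAC replicate 2, of 0.0793, 0.151, 0.0849 and 0.0581. In WT all 3 lost it, with highest values of 0.218 for Prkg1, 0.0924 for Ppp1r12a and 0.254 for Tead1, each without WT-TAC replicate 3, while Rgs2, Tbx20 and Tead1 in HCN4F kept it under all alternatives run.

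Of the 8 genes in HCN4F 6 were higher and 2 lower after TAC. Rgs2, a regulator of G protein signalling that cGMP kinase activates, had a log2 fold change of -0.92 (SE 0.17, adjusted p = 0.00264), with 21.3 to 37.2 CPM in HCN4F-Sham and 11.6 to 18.8 CPM in HCN4F-TAC, without overlap. Without HCN4F-Sham replicate 1 or 2 or HCN4F-TAC replicate 3 its fold change passed the limit of a call (-1.002, -1.03 and -1.07). Mme, which encodes neprilysin, the main enzyme that degrades natriuretic peptides, had one of -0.76 (SE 0.21, adjusted p = 0.0245), with 7.44 to 9.76 CPM in HCN4F-Sham and 2.83 to 6.96 CPM in HCN4F-TAC. In WT the log2 fold change was -0.64 for Rgs2 (adjusted p = 0.0876) and -0.21 for Mme (adjusted p = 0.665). The adjusted p of Rgs2 in WT was 0.0289 with DESeq2 on all groups, and 0.00382 with edgeR and 5.58e-06 with DESeq2 on the compared groups. The interaction was -0.28 for Rgs2 (adjusted p = 0.778) and -0.55 for Mme (adjusted p = 0.628).

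The other 6 were the phosphodiesterase gene Pde1c (0.41, adjusted p = 0.0246), the cGMP kinase gene Prkg1 (0.44, adjusted p = 0.0437) and 4 of the 11 transcription factors. Among the latter Tbx20, a T-box factor of the heart, had a log2 fold change of 0.57 (SE 0.11, adjusted p = 0.00214). Tead1, a factor that binds MCAT elements, had 0.51 (SE 0.11, adjusted p = 0.00701). Srf, which binds CArG boxes, had 0.42 (adjusted p = 0.0193), and Gata4, a GATA factor of cardiomyocytes, 0.39 (adjusted p = 0.0267). In WT Tbx20 had a log2 fold change of 0.41 (adjusted p = 0.0781), Gata4 0.40 (adjusted p = 0.0952) and Srf 0.24 (adjusted p = 0.306). There Tbx20 reached an adjusted p of 0.0393 with DESeq2 on all groups and 0.000541 with DESeq2 on the compared groups, and Gata4 one of 0.0278 with the latter and of 0.0251 without WT-TAC replicate 2. The 3 genes that passed in WT were Prkg1 (0.68, adjusted p = 0.0352), the myosin phosphatase gene Ppp1r12a (0.54, adjusted p = 0.00358) and Tead1 (0.56, adjusted p = 0.0319). Tead1 and Prkg1 thus passed the adjusted p in both genotypes in this fit, and Tead1 had 143 ± 11.4 CPM (SD, n = 4) in WT-Sham, 157 ± 24.1 CPM (n = 4) in HCN4F-Sham, 211 ± 2.67 CPM (n = 2) in WT-TAC and 223 ± 33.2 CPM (n = 4) in HCN4F-TAC.

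The most abundant gene of each other list did not pass in the fit over all libraries. After TAC in HCN4F Pcsk6, a convertase that activates corin, had a log2 fold change of -0.23 (adjusted p = 0.104). Pln, phospholamban, had -0.21 (adjusted p = 0.148). Gucy1a1, a subunit of soluble guanylyl cyclase, had -0.28 (adjusted p = 0.175), while Ide, insulin-degrading enzyme, and the phosphodiesterase gene Pde3a had -0.02 (adjusted p = 0.886) and -0.01 (adjusted p = 0.958). Of these, Gucy1a1 and Pcsk6 reached adjusted p-values of 0.00896 and 0.0282 without HCN4F-Sham replicate 1, and Pln one of 0.0297 without HCN4F-Sham replicate 2. Ostn, whose product musclin binds the clearance receptor, and the channel gene Trpc6 had too few reads for a test.

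After TAC in HCN4F 1 of 6 fibroblast markers, Col1a1, was called, beside 2.75% of all tested genes, and in WT 0 of 6, beside 0.706%. The 6 genes summed to 588 to 876 CPM in HCN4F-TAC (median 796 CPM), beside medians of 535 CPM in WT-Sham, 528 CPM in HCN4F-Sham and 500.1 CPM in WT-TAC. Col1a1 had the largest share in the difference of HCN4F-TAC from HCN4F-Sham (group means of 342 and 155 CPM, log2 fold change 1.14, SE 0.18, adjusted p = 0.00125). The median log2 fold change of the 6 genes after TAC in HCN4F was 0.10, with Lum at 0.51 (adjusted p = 0.0103) and Dpt at -0.20 (adjusted p = 0.124). The 5 ventricular myocyte genes had medians of 22198 CPM in WT-Sham, 20956 CPM in HCN4F-Sham, 19768 CPM in WT-TAC and 18671 CPM in HCN4F-TAC. Among 7 leukocyte genes, 6 were tested, and 1 (Cd79a) was called after TAC in HCN4F and 0 in WT. None of the 4 smooth muscle, 3 erythroid and 6 endothelial genes was called by edgeR. The smooth muscle sum was 290 to 408 CPM in WT-Sham and 201 to 215 CPM in WT-TAC, without overlap, and 183 to 347 CPM in HCN4F-Sham and 120.5 to 261 CPM in HCN4F-TAC. The erythroid sum was 84.8 to 182 CPM in WT-Sham and 73.7 to 82.9 CPM in WT-TAC, beside 59.3 to 161 CPM in HCN4F-Sham and 81.6 to 302 CPM in HCN4F-TAC. The part of these shifts in the results on the receptors, proteases and pathway genes was not tested.

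At the Nppb and Nppa locus 1 more gene rose with them. Gm13054 is annotated as an antisense gene on the minus strand at chr4:148001091-148004014, and it shares 532 of the 865 exon bases of Nppa (61.5%). Its level was 0.399 to 1.40 CPM in WT-Sham, 0.470 to 0.903 CPM in HCN4F-Sham, 1.27 and 1.17 CPM in WT-TAC and 3.48, 9.32, 2.65 and 6.22 CPM in HCN4F-TAC. After TAC in HCN4F Gm13054 rose by 2.98 on the log2 scale (SE 0.41, adjusted p = 0.000452), and in WT the log2 fold change was 0.56 (SE 0.54, adjusted p = 0.577).

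The counts of Gm13054 were 0.49% to 0.836% of those of Nppa in every library, although Nppa ran from 1908 to 55648 counts. Whether reads were counted by strand is not given in the sources used here, and without strand, reads of a gene and of its antisense partner cannot be told apart over the shared bases. The neighbouring genes named here were not called. Clcn6 had a log2 fold change of 0.14 after TAC in HCN4F (SE 0.10, adjusted p = 0.388). On the other side of Nppb Plod1 had 0.24 (adjusted p = 0.0874) and 2510039O18Rik 0.20 (adjusted p = 0.114). Among the antisense genes of the other members, Gm12473 at Npr2 had 10.8% to 17.4% of its counts, and those at Npr1, Corin and Furin had at most 10 counts.

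**Figure D5:**
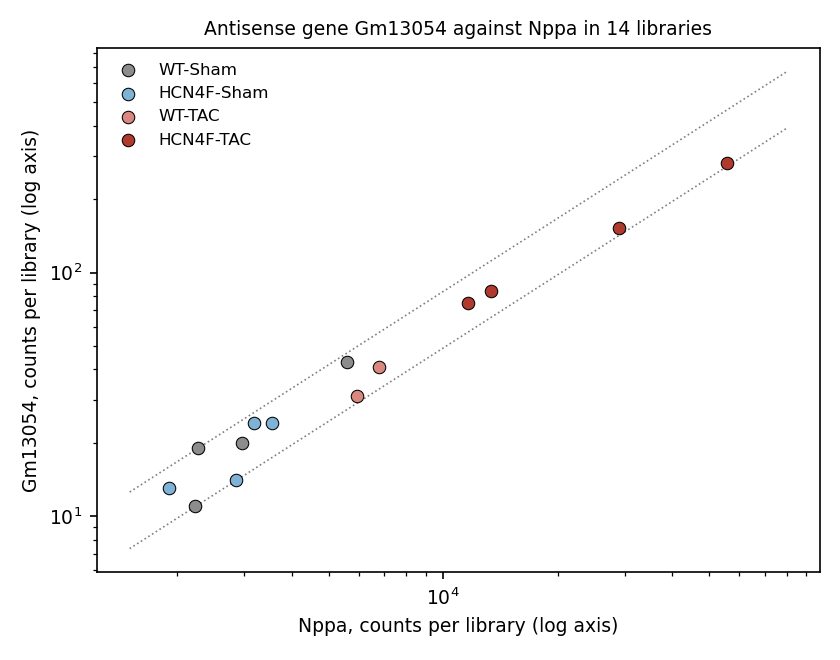
Counts of the antisense gene Gm13054 (y axis, log scale) against those of Nppa (x axis, log scale) in 14 libraries, coloured by group. The dotted lines are 0.49% and 0.836% of the Nppa count, the lowest and highest share, and all points lie between or on them from 1908 to 55648 counts of Nppa.

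Genes with the most similar pattern were sought for each tested member among 12563 genes with a mean of at least 1 CPM, by Pearson r of log2 CPM over the 14 libraries, as a description. For Nppa they included Gm13054 (0.99) and Ccdc136 (0.97), and for Nppb they were Rcan1 (0.97), a calcineurin regulator, Hspb6 (0.96), a small heat shock protein, and Tspan9 (0.96). Npr1 was nearest to She (0.92), Mcc (0.91) and Syde1 (0.89), and Corin to Acss1 (0.93), Ercc5 (0.93) and Aldh6a1 (0.93). The nearest genes of Furin were Dnajb5 (0.86), Sgcb (0.83) and Rnf128 (0.83), those of Npr2 Tmem87b (0.86), Tsc1 (0.85) and Dopey1 (0.83), and those of Npr3 Dlg4 (0.80), Cdr2 (0.77) and Alg5 (0.77). No member was among the 3 nearest of another, so that Nppa and Nppb each had closer partners elsewhere in the genome than in each other.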

How the data were processed

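The authors sequenced polyA-selected left ventricular RNA (RNeasy Fibrous Tissue Kit) on an Illumina platform and deposited raw counts, the reads per gene, without normalization. Build GRCm38 is named in the submitters' processing notes, and the aligner, the counting program and the use of strand are not given in the sources used here. Samples were grouped by their labels. The table held 2 further per-sample columns, named like WT-TAC, that match no sample used here, and these were left out. Members and gene lists were chosen with earlier results of these data known.

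Genes were filtered with filterByExpr by group and scaled by TMM, and all 14 libraries were fitted in 1 model with a mean per group in edgeR 4.0.16 (R 4.3.3, quasi-likelihood, robust), with Benjamini-Hochberg adjustment over the 15292 tested genes. The interaction used an adjusted p under 0.05 alone. The model over all groups lends the 2 WT-TAC libraries the spread of the others. The paper's test, DESeq2 (here 1.42.0), was an alternative. It was run on all groups, where it shares the spread in the same way, and on the compared groups alone. Log2 CPM used a prior count of 2 and ratios of counts 0.5 added counts. Gene loci and exon lengths were taken from GENCODE M21, where 48970 of 49315 IDs were found. The steps were tested on simulated data. Named genes were the members, the pathway genes called or highest in mean CPM per list, the 3 most similar genes per member and the leading marker genes; pathway genes past the adjusted p alone, genes of the Nppa locus, antisense genes and single atrial genes were named after their values were seen. Some genes that these rules name are not reported here. Python 3.11.15 with matplotlib 3.10.9 drew the figures. Alternatives were other tools, scalings and filters, no fold limit, the replicate number as a block, and leaving out each library.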

Additional observations from a re-analysis of the deposited data

How the results depend on the processing

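The calls of Nppa and Nppb after TAC in HCN4F held under all alternatives, with adjusted p-values of 4.76e-10 to 0.00922 and of 9.79e-08 to 0.0141, and leaving out each library gave 2 called members throughout. Leaving out a library gave log2 fold changes of 2.73 to 3.47 for Nppa and 2.02 to 2.69 for Nppb. In WT, between the Sham groups and in the interaction 0 members were called under every alternative, and leaving out each library also gave 0. Between the TAC groups 0 members were called in the reported fit, 1 (Nppa) with DESeq2 on all groups, and 0 to 1 when each library was left out, the 1 being without HCN4F-TAC replicate 3. The adjusted p of Nppa ran from 0.0164 to 0.699 there, that of Nppb from 0.000271 to 0.867 and that of Corin from 0.0166 to 0.834. After TAC in WT it ran from 0.0397 to 0.658 for Nppb, from 0.0276 to 0.789 for Corin and from 0.0141 to 0.4996 for Furin, and after TAC in HCN4F from 0.0460 (without HCN4F-Sham replicate 2) to 0.853 for Corin. With WT-TAC reduced to 1 library, that library is assumed to vary like the other groups.

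Small differences changed sign. Npr3 after TAC in WT (-0.01 on the log2 scale) became 0.00155 with DESeq2 on all groups, 0.00351 with DESeq2 and 0.00247 with edgeR on the compared groups, 0.000554 with DESeq2 size factors and 0.0145 without the filter. Leaving out each library, it ran from -0.18 to 0.16, and Npr1 in the same comparison from -0.20 to 0.11. Npr1 between the TAC groups ran from -0.18 to 0.13 and Npr2 after TAC in HCN4F from -0.0035 to 0.049. Between the Sham groups Nppa ran from -0.24 to 0.21, Npr2 from -0.058 to 0.00049 and Corin from -0.24 to 0.0998. Alternatives for pathway and locus genes were chosen after seeing the data, and after TAC in HCN4F Ide ran from -0.084 to 0.014 and Pde3a from -0.099 to 0.073, and in WT Pde1c from -0.19 to 0.075 and Clcn6 from -0.059 to 0.17.

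Counts of called genes moved by over 1.5 times in every comparison. Between the TAC groups 11 became 87 with DESeq2 on all groups, 72 with DESeq2 and 3 with edgeR on the compared groups, 48 without the filter and 158 without HCN4F-TAC replicate 3. Between the Sham groups 32 became 62, 78, 53 without the filter, and 11 to 92 on leaving out a library (lowest without WT-Sham replicate 2, highest without HCN4F-Sham replicate 1). The interaction went from 0 to 40 with DESeq2, 17 without the filter and 78 without HCN4F-TAC replicate 3. After TAC in WT 108 became 192 with edgeR on the compared groups, 49 and 47 without WT-Sham replicate 1 or 4 and 7 without WT-TAC replicate 3, and in HCN4F 420 became 273 without HCN4F-TAC replicate 2.

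The replicate numbers did not pair the samples: deviations from group means correlated at -0.12 to 0.16 in 18 pairs of libraries with the same number, 2 of them over 0.1, and at -0.24 to 0.20 in 54 pairs with other numbers. With the replicate block 2 members were called after TAC in HCN4F, 0 in the other comparisons, and 395 genes in place of 420, and in WT 68 in place of 108. The depth of 22309914 to 35210939 counts left Nppc, with 0 to 2 counts a library, below the limit that a count of 0 allows.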
